A study of Mus musculus with 107 samples.

Results

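EMT transcription factors are the genes described here. These are 10 genes, Snai1, Snai2, Twist1, Twist2, Zeb1, Zeb2, Prrx1, Foxc1, Foxc2 and Foxd1, which were picked by symbol from the 27179 genes of each deposited count table. The rule itself uses no measured value, but the choice was made with earlier results of these data known. The paper already names Snai1, Snai2 and Twist1 as elevated by rising serum concentrations. Their RNA was followed in all 107 libraries of 23 conditions by RiboTag RNA-Seq, in which RNA is pulled down with ribosomes whose protein Rpl22 carries a hemagglutinin (HA) tag. All grafted and cultured cells came from 1 female mouse embryonic stem cell (ESC) line of RiboTag genotype on a C57BL/6 background, in which Sox2-cre had switched the tag on, so that replicates of a condition are separate samples of that line. Neural progenitor cells (NPC) were derived from it and kept with EGF and FGF at 100 ng/ml, and they were sampled at passage (P) 5, 15 and 30 of 1 derivation and at P15 of a further (D2) and of another derivation (D3). There were 4 libraries of each of these groups and of ESC, other than 6 of NPC P15 D2.

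NPC were differentiated for 4 days with EGF and FGF lowered to 1 ng/ml, either with nothing added (SPONT) or with ciliary neurotrophic factor (CNTF) or insulin-like growth factor 1 (IGF-1) at 100 ng/ml, with fetal bovine serum (FBS) at 1, 5, 10 or 20% of the volume, or with CNTF and 5% FBS together, with 4 libraries each. NPC passed through a pipette in medium (NPC media), in the hydrogel used for grafting (NPC DCH) or in the hydrogel after 4 hours (NPC DCH 4 h) gave 5 libraries each. Grafts were recovered from the thoracic cord of C57BL/6 mice of either sex, aged between 8 weeks and 4 months at injury, with 5 libraries per group: 14 days in uninjured cord, 14 days in crush spinal cord injury (SCI), 14 days in double crush SCI (dSCI) and 5 days in SCI. The sources differ on whether these days count from injury or from grafting, which was done 2 days after injury. Host astrocytes were profiled without grafts in GFAP-Cre 73.12 RiboTag mice of the same strain and age range, in which the tag depends on Cre driven by the Gfap promoter, in 9 healthy libraries and 5 taken 14 days after crush SCI. The labels name no animal for a library, so p-values measure the spread between these libraries.

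Epithelial-mesenchymal transition (EMT) is the process in which epithelial cells lose E-cadherin and their junctions and gain motility, contractile fibers and a matrix-producing program. Zinc finger proteins of the Snail family (Snai1, and Snai2, also called Slug) and the zinc finger homeodomain proteins Zeb1 and Zeb2 bind E-box sequences and repress epithelial genes such as Cdh1 (E-cadherin). Twist1 and Twist2 are basic helix-loop-helix factors of mesoderm and neural crest, Prrx1 is a paired-related homeobox gene of mesenchyme, and Foxc1, Foxc2 and Foxd1 are forkhead genes of mesenchyme, vessels, meninges and kidney stroma. In neural tissue the same factors have other uses: Zeb1 is made by neural stem cells and Zeb2 by differentiating glia and neurons.

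The 4 members that rose most at 5% serum and had an entry among the RefSeq promoters of build GRCm38.p6 are shown by the 250 bases before their start, 5′ to 3′ on the strand of the gene. Capitals mark the letters of 3 motifs, searched on both strands. CACCTG is an E-box preferred by Snail and Zeb proteins. TATAAA is the TATA box. CCAAT is a box of many promoters, which on the opposite strand reads ATTGG. No 2 marked motifs overlapped.
Snai1 (chr2:167537945-167538194, plus strand): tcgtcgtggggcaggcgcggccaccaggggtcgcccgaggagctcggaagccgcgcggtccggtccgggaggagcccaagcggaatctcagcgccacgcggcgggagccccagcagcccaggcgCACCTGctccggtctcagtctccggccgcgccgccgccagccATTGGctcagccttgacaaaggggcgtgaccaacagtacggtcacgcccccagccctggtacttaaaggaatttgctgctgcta
Twist1 (chr12:33957421-33957670, plus strand): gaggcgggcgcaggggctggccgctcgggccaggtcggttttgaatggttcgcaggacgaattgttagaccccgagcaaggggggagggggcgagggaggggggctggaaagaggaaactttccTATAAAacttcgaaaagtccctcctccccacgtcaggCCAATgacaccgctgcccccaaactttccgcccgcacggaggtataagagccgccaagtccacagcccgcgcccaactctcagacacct
Twist2 (chr1:91801211-91801460, plus strand): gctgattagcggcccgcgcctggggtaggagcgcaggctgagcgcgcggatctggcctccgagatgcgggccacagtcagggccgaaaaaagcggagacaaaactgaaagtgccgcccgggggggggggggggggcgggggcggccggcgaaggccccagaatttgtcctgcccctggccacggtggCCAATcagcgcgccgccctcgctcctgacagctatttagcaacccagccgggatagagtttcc
Foxc1 (chr13:31806396-31806645, plus strand): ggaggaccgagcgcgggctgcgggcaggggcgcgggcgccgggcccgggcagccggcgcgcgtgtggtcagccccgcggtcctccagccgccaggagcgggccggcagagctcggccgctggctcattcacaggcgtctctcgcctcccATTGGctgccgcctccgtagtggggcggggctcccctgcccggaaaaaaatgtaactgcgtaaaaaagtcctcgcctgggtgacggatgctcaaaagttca
All 4 windows held a CCAAT box, which 33.8% of the 32851 promoters of the same length hold. That of Snai1 alone among the 4 also held CACCTG, from 126 to 121 bases before the start, against 17.2% of all promoters, and that of Twist1 alone held TATAAA, at the same distance, against 12.4%. TTCNNNGAA, the letters bound by Stat proteins, which act downstream of CNTF, was in none of these 4 windows and in 7.02% of all. Of the other members, Prrx1, Foxd1 and Zeb2 had entries, and 2 overlapping entries of Zeb2 held TTCNNNGAA at the same place. These matches describe letters only.

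On GRCm38.p6, Snai1 lies at chr2:167538195-167542814, Snai2 at chr16:14705852-14709395, Twist1 at chr12:33957671-33959831, Twist2 at chr1:91801461-91848034, Foxc1 at chr13:31806646-31810635, Foxc2 at chr8:121116171-121118895 and Foxd1 at chr13:98354245-98356705, all on the plus strand, and Zeb2 at chr2:44983512-45117442 and Prrx1 at chr1:163245119-163315145 on the minus strand. Counts are per gene, over its annotated exons. Twist2, Zeb1, Zeb2 and Prrx1 overlap annotated antisense or opposite-strand genes (Gm29100, Gm10125, Zeb2os and Gm20471) and Foxc2 overlaps a protein-coding model on its own strand (Gm20388). These overlaps are of whole gene bodies, and counting at default settings took no account of strand. Whether they affected the counts was not tested.

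Levels are given as CPM, the counts of a gene scaled to a common library total, which compare libraries, and as FPKM, which is CPM per kilobase of exon and compares genes. Changes are log2 fold changes (log2FC) with standard errors (SE) from edgeR's quasi-likelihood test, and a gene was called where its adjusted p was below 0.01 over all genes tested. Library totals were 30473157 to 147764968 counts in 96 libraries and 12286240 to 18085106 in the 11 libraries of NPC P15 D2 and grafts in SCI at 5 days. At these depths 1 count was worth less than 0.1 CPM in every library, and a level resting on 3 counts or fewer in a library was taken as not separable from 0. The count headers of these 11 libraries name 1 read data set and those of the others 2. On that ground the 11 were taken as single-read. No label gives the read type, and the methods of the paper state paired reads.

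Several libraries stood apart before any member was considered. A single gene identifier that the reference table leaves unnamed took 25.0% of the counts of graft SCI 14 d replicate 5 and 35.0% of those of graft dSCI 14 d replicate 5. Summed myeloid markers reached 7772 CPM in graft SCI 5 d replicate 4, against 409 to 562 in the other 4 libraries of that group. Summed Y-linked genes were at 64.3 to 102 CPM in 7 of the 9 healthy host libraries and at or under 0.1 CPM in the other 2 and in all 5 injured ones, so healthy and injured hosts differed in sex as well as injury. No pair among 209 pairs of libraries of a group was within counting noise of each other. Pluripotency markers summed to 1466 to 1526 CPM in ESC and to 0.201 to 0.405 CPM in NPC P15, and astrocyte markers to 26670 to 42700 CPM in hosts, led by Gfap, which fitted the labels. Host libraries also held myelin genes of oligodendroglia (Mbp, mean 4312 CPM healthy and 19620 CPM injured) and Schwann cell markers (summed to 1358 to 2557 CPM healthy and 3534 to 6374 CPM injured), so they were not astrocyte RNA alone. In such bulk samples, fewer cells of a type and less RNA per cell cannot be told apart.

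Proliferating NPC already carried most of these transcripts. Per length, Zeb1, Snai1 and Twist1 led in NPC P15, at a mean of 47.1, 31.5 and 14.0 FPKM, whereas Twist2 stood at 1.95 FPKM and Snai2 and Foxd1 at 0.27 and 0.213 FPKM. The progenitor groups did not share 1 level. Snai1 was at 45.9 to 55.1 CPM in the 4 libraries of NPC P15 and at 53.5 to 60.4 in those of NPC P15 D3, but at 23.3 to 30.6 across NPC P5, P30 and P15 D2. Prrx1 was at 38.7 to 42.9 CPM in NPC P15 D3 and at 121 to 137 in NPC P15 D2, both of P15. These groups also differed in depth and in the read type taken from the headers, which cannot be told apart from derivation. Snai1 also differed with handling, at 54.5 to 70.5 CPM in NPC media and 26.4 to 35.6 across both hydrogel groups.

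ESC, which were grown with serum and leukemia inhibitory factor, had less of nearly every member than NPC P15. Of the 9 members tested, 8 were lower in ESC (67.2% of all genes tested were called, 34.9% higher and 32.2% lower). Prrx1 was all but missing at 0.0894 to 0.25 CPM against 80.5 to 103 in NPC P15 (log2FC −8.96, SE 0.21), Zeb2 was at 0.924 to 2.28 against 51.2 to 68.0 CPM (−5.07, SE 0.26), and Zeb1 at 23.1 to 28.7 against 472 to 494 CPM (−4.10, SE 0.08). Among the called members Snai1 had the smallest fall, to 14.8, 14.8, 12.8 and 20.2 CPM (−1.61, SE 0.14, edgeR adjusted p = 1.13e-06). Of 17 epithelial genes, 16 were higher in ESC, Cdh1 at 317 to 383.5 CPM against at most 0.225 CPM, and mesenchymal Cdh2 (N-cadherin) and Vim (vimentin) were lower by −6.31 (SE 0.09) and −4.49 (SE 0.06).

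Spontaneous differentiation without serum took Snai1 to about 1 CPM and Twist2 below it. Of 10 members tested, 8 fell from NPC P15 to SPONT and none rose (57.2% of all genes were called, 27.4% lower). Snai1 went from 50.1, 45.9, 53.1 and 55.1 CPM to 0.873, 0.74, 1.31 and 0.705 CPM, and the groups were far apart (log2FC −5.68, SE 0.20, edgeR adjusted p = 1.73e-09). Twist2 went from 5.74, 7.87, 6.18 and 4.92 CPM to 0.156, 0.193, 0.0295 and 0.249 CPM (−5.15, SE 0.48). Foxc1 fell by 2.41, Zeb1 by 1.33 and Twist1 by 0.89 on the log2 scale, with no overlap between groups. Zeb2, at 44.8 to 102 CPM in SPONT and 51.2 to 68.0 in NPC P15, was not called (0.36, SE 0.21, adjusted p = 0.151). Against NPC P15 D3, however, Zeb2 was called higher (0.86, SE 0.21, adjusted p = 0.00262). Snai2, which was not called against NPC P15 (−0.95, SE 1.26, adjusted p = 0.524), was called lower against NPC P15 D3 (−2.52, SE 0.39, adjusted p = 8.01e-05). The calls of Prrx1, Foxc2, Foxd1 and Twist1 depended on the reference progenitors as well. Prrx1 had a log2FC of −1.17 (SE 0.12) against NPC P15 and 0.02 (SE 0.11) against NPC P15 D3, Foxc2 −1.43 and 0.06 against the same references, and Foxd1, at most 1.70 CPM in any of these libraries, −3.03 against NPC P15 and 0.03 against NPC P5. Twist1 missed the threshold against NPC P5 (−0.37, SE 0.14, adjusted p = 0.0419). Foxd1 also lost its call without SPONT replicate 2 (adjusted p = 0.0118) or 3 (0.0106).

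Serum during differentiation addressed what blood-borne molecules do to these cells, and the Snail and Twist genes rose with its dose. Against SPONT, 2 of 9 members tested rose at 1% FBS (8.78% of all genes were called, 5.63% higher), 6 of 10 rose and 1 fell at 5% (34.1% called, 19.2% higher and 14.9% lower), 7 rose and 1 fell at 10% (45% called, 24.2% higher and 20.8% lower), and 7 rose and 1 fell at 20% (55.5% called, 27.6% higher and 27.9% lower). These comparisons share the SPONT libraries.

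Snai1, the E-cadherin repressor that responds early to transforming growth factor beta (TGF-beta), had the widest range as a fold change. It read 0.873, 0.74, 1.31 and 0.705 CPM in SPONT, 5.35, 2.89, 2.4 and 2.77 at 1% FBS, 29.8, 18.4, 19.3 and 25.5 at 5%, 52.0, 36.2, 44.0 and 41.7 at 10%, and 62.9, 70.4, 69.9 and 78.8 at 20%. No 2 doses overlapped. The log2FC against SPONT was 1.90 (SE 0.30, edgeR adjusted p = 0.00171) at 1% and 6.24 (SE 0.19, 4.66e-10) at 20%, a 75.5-fold difference. From dose to dose, Snai1 rose from 1 to 5% (2.79, SE 0.26), as 6 of 9 members did while 1 fell (31.1% of all genes were called), and from 10 to 20% (0.67, SE 0.11, adjusted p = 0.00399), whereas the step from 5 to 10% missed the threshold (0.89, SE 0.17, adjusted p = 0.0139) but passed it without a filter (0.00917), with DESeq2 (2.81e-05) and in 1 fit over all differentiation groups (0.000283). The step from 10 to 20% was lost on leaving out 10% FBS replicate 3, 20% FBS replicate 2 or 20% FBS replicate 3, with adjusted p up to 0.0173.

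Snai2, the second Snail repressor and a neural crest factor, was higher from 5% serum on. It was at 0.118 to 0.495 CPM in SPONT and 0.237 to 0.595 CPM at 1% FBS, which overlapped (log2FC 0.70, SE 0.45, adjusted p = 0.309), and then at 3.82, 3.15, 5.01 and 6.61 CPM at 5%, 5.57, 5.1, 9.51 and 10.6 at 10%, and 15.6, 14.2, 17.1 and 15.3 at 20%. At 5% the log2FC was 4.18 (SE 0.42, edgeR adjusted p = 2.49e-05) and at 20% it was 5.86 (SE 0.31). Libraries at 5 and 10% overlapped, those at 20% lay above both. The step from 10 to 20% (0.99, SE 0.20) missed the threshold (adjusted p = 0.0111) and passed it without a filter (0.00649), with DESeq2 (3.06e-05) and without 10% FBS replicate 2 (0.00834) or 4 (0.00511).

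Twist2 followed Snai1 at a lower level and Twist1 levelled off. Twist2 read 0.156, 0.193, 0.0295 and 0.249 CPM in SPONT, 3.34, 1.76, 2.06 and 2.64 at 5% FBS, 5.83, 5.31, 5.28 and 5.55 at 10% and 8.99, 8.1, 9.49 and 9.29 at 20%, with no overlap from 5% on (log2FC 5.78, SE 0.32, at 20%). It was the 1 member called from 5 to 10% (1.15, SE 0.20, adjusted p = 0.00976, against 1.82% of all genes called, 0.869% higher and 0.954% lower), a call that ended on leaving out any 1 of the 8 libraries (adjusted p up to 0.0381), and with Snai1 1 of 2 called from 10 to 20% (0.68, SE 0.10, adjusted p = 0.00194, against 4.4% of all genes called, 2.12% higher and 2.27% lower), a call lost without 20% FBS replicate 3 (0.0115) and in 1 fit over all differentiation groups (0.131). Twist1, which was present in SPONT at 9.01 to 12.9 CPM, did not differ at 1% (0.15, SE 0.14, adjusted p = 0.488), reached 39.2, 27.8, 51.6 and 52.8 CPM at 5%, 61.8 to 67.4 at 10% and 61.9 to 74.6 at 20%. Its ranges at 10 and 20% overlapped (0.08, SE 0.07, adjusted p = 0.489).

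Of the Zeb genes, Zeb1 fell from 5% serum on and Zeb2 was called at no dose. Zeb1 read 186, 123, 191.8 and 205 CPM in SPONT, 112, 117, 110 and 100 at 5% FBS, 79.7, 82.8, 83.8 and 93.9 at 10%, and 80.3, 77.8, 86.8 and 82.5 at 20%, and fell by 0.67 (SE 0.14, edgeR adjusted p = 0.00235) at 5% and by 1.14 (SE 0.13, 1.59e-05) at 20% on the log2 scale. Zeb2, at 44.8 to 102 CPM in SPONT and 45.3 to 49.9 at 20%, had a log2FC of −0.53 (SE 0.20) that missed the threshold (adjusted p = 0.0373), though it was called lower without SPONT replicate 2 (−0.64, adjusted p = 0.00443) and in 1 fit over all differentiation groups (−0.51, 0.00631). At 1% FBS Zeb1 was not called (−0.29, SE 0.13, adjusted p = 0.151) except without SPONT replicate 2 (−0.43, 0.00102) or in that 1 fit (−0.29, 0.00882). Per length, Zeb1 led the 10 genes in SPONT, at a mean of 17.2 FPKM against 6.90 for Twist1 and 0.560 for Snai1, and at 20% FBS Snai1 (43.5 FPKM) and Twist1 (42.0) lay above Zeb1 (7.97).

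Foxc1, a meningeal and mesenchymal forkhead gene, was with Snai1 1 of the 2 genes that rose at 1% FBS. It was at 3.49 to 5.42 CPM in SPONT, 8.12 to 12.3 at 1% (log2FC 1.19, SE 0.18, edgeR adjusted p = 0.0012), 28.9 to 51.3 at 5% and 63.8 to 74.5 at 20% (3.82, SE 0.13). Its step from 10 to 20% was not called (0.57, SE 0.13, adjusted p = 0.0168) except without 10% FBS replicate 2 (0.00231), in 1 fit (0.00819) or with DESeq2 (0.00061). Prrx1 went from 33.2 to 47.3 CPM in SPONT to 83.3 to 99.4 at 5% (1.22, SE 0.11) and 124 to 178 at 20% (1.82, SE 0.14), and at 1% lay within the range of SPONT (−0.03, SE 0.11, adjusted p = 0.864). Foxc2 stayed at 2.87 to 6.5 CPM over all doses and was called at none, with a log2FC of −0.19 (SE 0.15, adjusted p = 0.291) at 20%. Foxd1 was scarce, at 0.0261 to 0.194 CPM in SPONT and 0.636 to 1.35 at 20% (2.97, SE 0.48), and its call at 10% (1.77, SE 0.48, adjusted p = 0.00942) ended on leaving out any library other than SPONT replicate 4 (adjusted p up to 0.0242), without a filter (0.0137) and in 1 fit (0.0372).

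**Figure D1:**
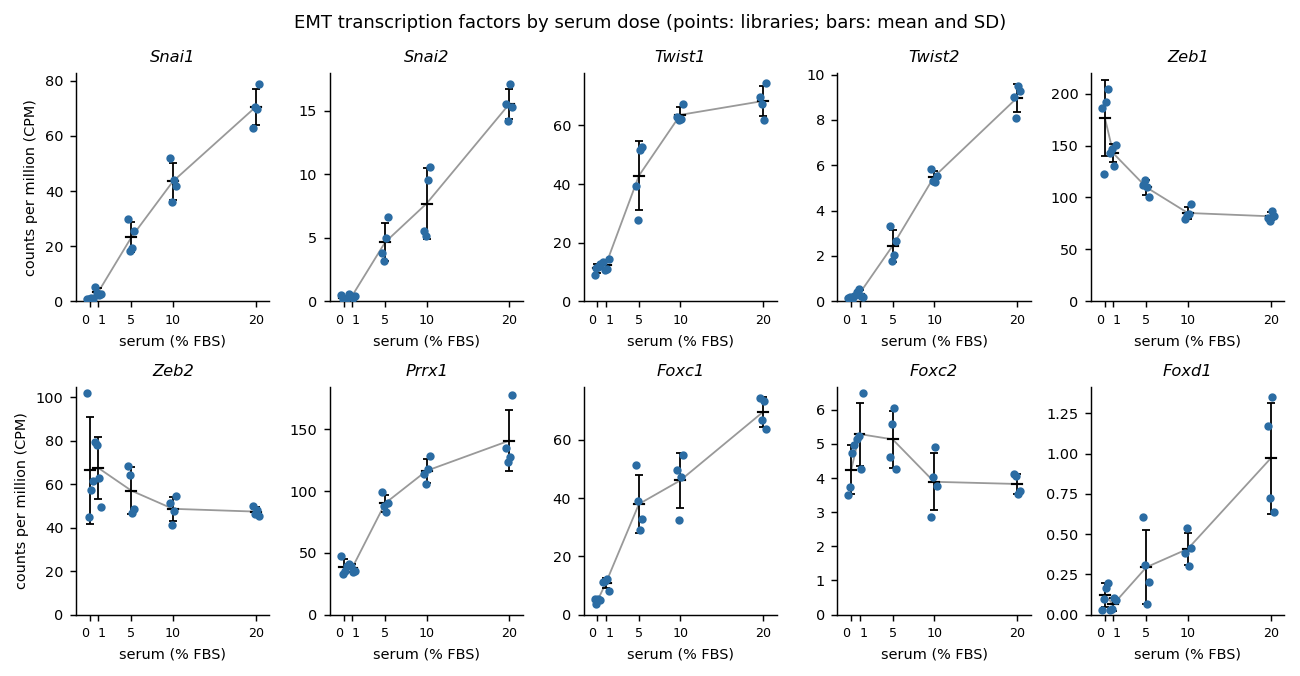
Each panel plots 1 gene, with serum in percent FBS on the x axis (0 is SPONT) and CPM on the y axis, which differs between panels and starts at 0. Points are the 4 libraries of a dose, bars the mean and SD. The libraries of Snai1 and Twist2 lay higher at each dose from 5% on without overlap, those of Twist1 overlapped at 10 and 20%, Zeb1 fell, and Zeb2 and Foxc2 were called at no dose when each was fitted with SPONT alone.

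Other genes of the program were read from lists, which were also chosen with earlier results of these data known. Of 27 mesenchymal effectors, 24 rose at 5% FBS and none fell, with a median log2FC of 2.98 against −0.01 for all genes tested. Ccn2, a matrix-associated growth factor, had a log2FC of 8.43 (SE 0.29), Thbs1 (thrombospondin) 8.41 (SE 0.32) and Acta2 (smooth muscle actin) 7.36 (SE 0.25), and Fn1 (fibronectin) 2.98, Cdh2 1.70 and Vim 1.08. At 20%, 25 of 27 rose, Acta2 by 10.65 (SE 0.25). Of 16 genes of TGF-beta signalling, 10 rose at 5%, with latent TGF-beta binding protein Ltbp2 at 7.95 (SE 0.46) and the TGF-beta-induced gene Tgfbi at 4.91, whereas the ligand Tgfb1 (0.45, SE 0.22) was not called (adjusted p = 0.123) until 20% (1.40, SE 0.22).

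Epithelial genes were mostly at too few counts to be tested, 5 of 17 passing, of which 2 fell and 2 rose at 5%. Cdh1 fell, from 1.21 to 1.91 CPM in SPONT to at most 0.122 CPM, and Krt8, a simple-epithelium keratin, fell by 2.19 (SE 0.52). Llgl2, a polarity gene, rose by 2.1 (SE 0.27) and Ocln (occludin of tight junctions) by 1.77 (SE 0.36). Of 22 relatives and partners of the factors, 19 were tested, 5 rose and 6 fell, among them the Snail relative Scrt1 of neurons (−2.48, SE 0.32) and the homeobox genes Gsc (1.88, SE 0.29) and Msx2 (1.52, SE 0.26). Of 10 corepressors, 2 rose and 5 fell. Ajuba, which binds Snail proteins, rose by 2.59 (SE 0.16), and Ezh2 and Hdac2 fell by 0.91 (SE 0.15) and 0.63 (SE 0.08). Fibroblast and meninges markers moved with the factors, 6 of 9 rising at 5% (Ogn 8.36, Dcn 7.14, Col1a1 4.88). They summed to at most 424 CPM in SPONT, where Aebp1 alone had a mean of 243 CPM (SD 108). The sum was 588 to 1036 CPM at 5% and 1215 to 1661 at 20%. The part of these markers in the result was not tested. Myeloid markers summed to at most 5.12 CPM in SPONT and 3.00 CPM at 5%.

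CNTF and IGF-1 were also given without serum, and with each 1 member was called, too few to set apart from the share of all genes. Against SPONT, CNTF changed 1 of 9 members tested, Foxc2 (19.9% of all genes were called), from 3.52, 3.75, 4.73 and 4.96 CPM to 2.43, 2.26, 2.04 and 2.32 (log2FC −0.88, SE 0.15, edgeR adjusted p = 0.00103). Zeb1 with CNTF (−0.44, SE 0.13) missed the threshold (adjusted p = 0.0225) and was called lower without SPONT replicate 2 (8.15e-06), with DESeq2 (0.00692) and in 1 fit (9.92e-05). IGF-1 changed 1 of 9 members tested, Zeb1 (6.55% called, 2.8% higher and 3.75% lower), from 123 to 205 CPM to 81.8 to 106 (−0.81, SE 0.13, adjusted p = 0.00572), a call that ended on leaving out any library other than SPONT replicate 2 (adjusted p up to 0.027). Snai2 with IGF-1 (1.40, SE 0.40, adjusted p = 0.0255) was called higher without SPONT replicate 1 (0.00804) or with DESeq2 (0.00501). Snai1 stayed at 0.909 to 1.21 CPM with CNTF and 0.617 to 0.852 with IGF-1, both overlapping SPONT.

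Combined with 5% serum, CNTF went with much lower Snai1, Snai2 and Twist2. Of 9 members tested against 5% FBS alone, 4 were lower and 1 higher (23.3% of all genes were called, 12% lower and 11.3% higher). Snai1 read 4.45, 5.77, 6.77 and 6.21 CPM, all under the lowest library of 5% FBS (18.4 CPM), with a log2FC of −2.08 (SE 0.18, edgeR adjusted p = 4.58e-05). Snai2 read 1.56, 1.2, 0.929 and 1.32 CPM against 3.15 to 6.61 (−1.96, SE 0.25), and Twist2 1.02, 0.733, 0.901 and 0.976 CPM against 1.76 to 3.34 (−1.51, SE 0.22). Prrx1 read 57.1 to 59.5 CPM against 83.3 to 99.4 (−0.70, SE 0.06). The 4 genes lay apart from 5% FBS in every library.

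Twist1 and Foxc1, which serum raises too, were not called lower, though for Twist1 1 library decided this. Twist1 read 37.9, 36.1, 37.3 and 39.5 CPM, within the 27.8 to 52.8 CPM of 5% FBS (−0.26, SE 0.16, adjusted p = 0.243), and without 5% FBS replicate 2 it was called lower (−0.40, SE 0.09, adjusted p = 0.00729). Foxc1 read 30.1 to 32.9 CPM within 28.9 to 51.3 (−0.34, SE 0.16, adjusted p = 0.111). Zeb1 was slightly higher, at 137 to 143 CPM against 100 to 117 (0.28, SE 0.06, adjusted p = 0.00447), though leaving out 5% FBS replicate 3 or replicate 1, 2 or 4 of CNTF with 5% FBS ended the call (adjusted p up to 0.0138). Serum still raised 8 of 9 members over CNTF alone (72.8% of all genes were called, 36.1% higher and 36.8% lower), Snai1 by 2.38 (SE 0.14) and Snai2 by 3.13 (SE 0.33), though Zeb2 lost its call in 1 fit over all differentiation groups (0.43, SE 0.16, adjusted p = 0.0198).

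In the 4 groups fitted together, the term that compares the serum effect with and without CNTF was called for 5 of 10 members (22.9% of all genes). It was −2.30 (SE 0.29, adjusted p = 1.65e-05) for Snai1, −2.26 (SE 0.49, 0.00206) for Twist2 and −0.85 (SE 0.13, 9.26e-05) for Prrx1, and positive for Foxc2 (1.01, SE 0.19) and Zeb1 (0.71, SE 0.15). For Snai2 it was −1.03 (SE 0.59) and not called (adjusted p = 0.172), for Twist1 −0.53 (SE 0.22, adjusted p = 0.0611) and for Foxc1 −0.62 (SE 0.22, adjusted p = 0.0333). Single libraries decided these last calls too, since Twist1 was called without 5% FBS replicate 2 (−0.68, 0.00357) and Foxc1 without 5% FBS replicate 3 (−0.74, 0.0092).

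**Figure D2:**
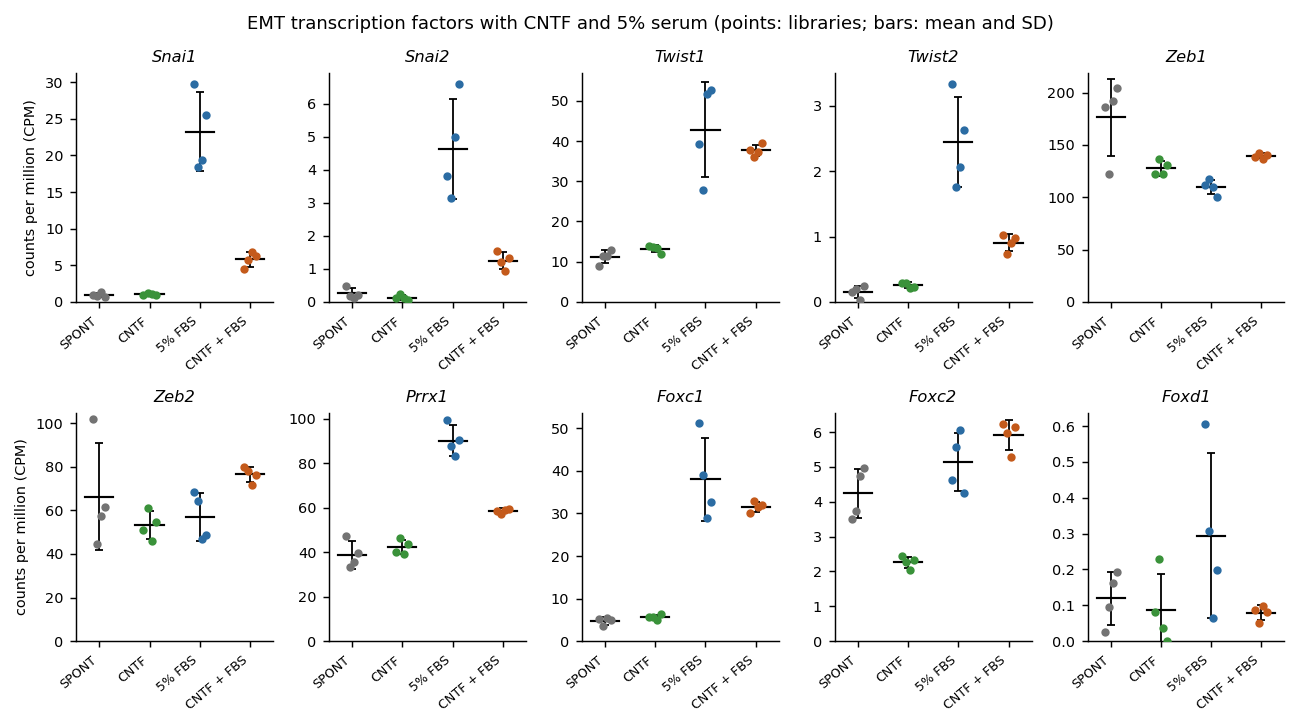
Each panel plots the CPM of 1 gene (y axis, from 0, its scale differing between panels) in SPONT, CNTF, 5% FBS and CNTF with 5% FBS. Points are the 4 libraries, bars the mean and SD. Snai1, Snai2, Twist2 and Prrx1 lay lower with CNTF and serum than with serum alone in every library, and Twist1 and Foxc1 overlapped.

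The effector genes moved in the same comparison. Of 27 mesenchymal effectors, 17 were lower with CNTF and serum than with serum alone and none higher (median log2FC −0.94 against −0.02 for all genes), led by Col3a1 (−4.85, SE 0.60), Postn (periostin, −4.16, SE 0.38) and the collagen cross-linker Lox (−4.08, SE 0.35), with Acta2 at −2.03 (SE 0.13) and Fn1 at −1.60 (SE 0.10). Of 16 TGF-beta genes, 6 were lower, Ltbp2 by −2.58 and Tgfbi by −2.04, and Tgfb1 was not called (0.15, SE 0.20, adjusted p = 0.585). The term for unequal serum effects was negative and called for 20 of the 27 effectors, including Acta2 (−2.65), Fn1 (−2.71) and Vim (−1.97). The sum of fibroblast and meninges markers was 286 to 325 CPM, below the 588 to 1036 CPM of 5% FBS, and 6 of these 9 genes were lower and 1 higher. Their part in the result was not tested.

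In host astrocytes, crush SCI went with more of nearly every member. Of 10 tested, 8 were higher 14 days after injury than in healthy cord and 1 was lower (41.1% of all genes were called, 22.2% higher and 18.8% lower). Snai1 had a lowest, median and highest level of 0.0823, 0.27 and 0.73 CPM in the 9 healthy libraries and read 1.76, 2.88, 1.51, 1.89 and 1.6 CPM in the 5 injured ones, without overlap (log2FC 2.70, SE 0.45, edgeR adjusted p = 8.02e-05). Snai2 had 1.1, 2.31 and 2.96 CPM healthy and 7.81, 8.69, 5.04, 4.64 and 4.01 CPM injured (1.28, SE 0.23). Twist1 had 0, 0.0933 and 0.533 CPM healthy and 1.99, 2.11, 1.79, 1.7 and 1.76 CPM injured (3.14, SE 0.65), and Twist2, at most 0.112 CPM in healthy cord, 1.32, 1.36, 1.05, 0.64 and 1.04 CPM (adjusted p = 2.83e-05), with no fold change given because only 3 of the 9 healthy libraries held over 3 counts. These 4 genes were still scarce in injured hosts, at a mean of 1.19, 2.99, 1.15 and 0.341 FPKM.

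The forkhead genes rose as well. Foxd1 had 0, 0.207 and 0.746 CPM healthy and 3.16, 4.47, 2.54, 2.92 and 2.91 CPM injured (3.57, SE 0.57), Foxc2 0.231 to 0.73 and 2.57 to 5.05 CPM (2.75, SE 0.28), and Foxc1 0.154 to 1.91 and 2.09 to 5.99 CPM (2.16, SE 0.35). Zeb2, the most abundant of the 10 per length in injured hosts (6.88 FPKM), had 55.5, 66.8 and 86.0 CPM healthy and 167, 153, 150, 147 and 69.3 CPM injured, so that 1 injured library lay among the healthy ones (0.78, SE 0.15). Zeb1 fell from 72.2, 89.1 and 111 CPM to 64.4, 50.0, 68.1, 84.5 and 46.2 CPM, with overlap (−0.73, SE 0.13). Prrx1 was not called, at 22.3 to 27.8 CPM healthy and 25.8 to 32.9 injured (0.08, SE 0.08, adjusted p = 0.397).

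Other cell types' genes rose in the same injured libraries. All 10 myeloid markers rose, from a sum of 16.3 to 29.9 CPM to 189 to 1171 CPM with C1qa the most abundant, as did 8 of 9 fibroblast and meninges markers (328 to 569 against 1068 to 1963 CPM, Aebp1 the most abundant), 6 of 6 Schwann cell markers (1358 to 2557 against 3534 to 6374 CPM) and 6 of 9 oligodendroglia markers, and none of these markers was at or under 3 counts throughout. Of 8 astrocyte markers 4 fell and none rose, with Slc1a2 (glutamate transporter) at −1.84 (SE 0.19). Their part in the result was not tested. With the 7 healthy libraries that held Y-linked counts left out, an alternative chosen after seeing the data that leaves 2 healthy against 5 injured libraries, 6 of the members remained called, and Snai2 (1.41, adjusted p = 0.0189), Zeb1 (−0.89, 0.0116) and Zeb2 (0.56, 0.145) were not. The share of all genes called among these libraries is not given. Of 27 mesenchymal effectors, 24 rose and 2 fell in injured hosts (median 2.34), with Postn at 6.11 (SE 0.31), Timp1, a protease inhibitor, at 5.38 and Vim at 2.57, and of 16 TGF-beta genes 8 rose and 4 fell, with Tgfb1 at 3.53 (SE 0.26).

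Grafted cells at 5 days in SCI were compared with NPC P15 D2, both taken as single-read. Of 10 members tested, 6 were higher in grafts and 1 lower (69.3% of all genes were called, 35.6% higher and 33.8% lower). Snai2 stood out, at 0.371 to 1.16 CPM in the 6 progenitor libraries and 16.0, 37.9, 25.7, 9.73 and 16.0 CPM in the grafts (log2FC 4.63, SE 0.36, edgeR adjusted p = 1.09e-07), the highest mean of any of the 23 conditions, though overlapping 20% FBS. Twist1 read 32.3, 83.6, 96.7, 34.4 and 34.2 CPM against 16.6 to 22.4 (1.51, SE 0.27), Twist2 5.22 to 9.51 against 2.42 to 4.59 (1.16, SE 0.24) and Snai1 27.4, 61.5, 57.8, 26.9 and 37.0 against 23.6 to 26.9 (0.74, SE 0.19, adjusted p = 0.00326). The call of Snai1 was lost without graft replicate 2 (0.0101) or 3 (0.0114). The Foxc2 levels were 10.0, 9.64, 8.03, 45.2 and 23.4 CPM against 4.68 to 6.34 (1.80, SE 0.44), and those of Foxd1 were 4.72, 9.1, 9.57, 56.6 and 15.3 CPM against 0 to 0.277, the highest of both in replicate 4, the library with the most myeloid counts. Zeb1 fell from 456 to 496 CPM to 50.0 to 95.5 (−2.57, SE 0.13), and Zeb2, Prrx1 and Foxc1 overlapped their progenitors. Against NPC DCH, of another read type, Snai1 (0.53), Twist1 (1.02), Twist2 (1.13) and Foxc2 (1.495) kept their direction and were not called (adjusted p 0.0135 to 0.0502), whereas Zeb2 (1.2, SE 0.27, adjusted p = 0.00217) and Foxc1 (0.73, SE 0.21, 0.00836) were called higher. Myeloid markers (10 of 10) and fibroblast and meninges markers (9 of 9, sum 6987 to 18950 CPM, led by Col1a1, against 329 to 366 CPM) rose in the same grafts, as did 23 of 27 mesenchymal effectors, and their part in the result was not tested.

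At 14 days the grafts in uninjured cord and SCI held less Snai1 and Twist1 than cells before grafting, and in dSCI neither was called. Against NPC DCH, the 10 members tested gave 2 higher and 4 lower in uninjured cord (53.7% of all genes were called, 28.4% higher and 25.3% lower), 3 higher and 4 lower in SCI (51.6%, 28.4% and 23.3%) and 5 higher and 1 lower in dSCI (51.9%, 28.5% and 23.4%). The 3 comparisons share the NPC DCH libraries. Summed myeloid markers were at most 1.504 CPM in NPC DCH. In grafts the sums were 181 to 1180 CPM in uninjured cord, 387 to 1251 in SCI and 778 to 5392 in dSCI. The part of these markers in the results against NPC DCH was not tested. Snai1 read 33.1, 30.7, 27.9, 34.8 and 27.0 CPM before grafting, 12.2, 14.7, 3.57, 11.6 and 8.74 in uninjured cord (−1.55, SE 0.33), 13.7, 11.5, 15.9, 10.9 and 14.0 in SCI (−0.87, SE 0.19) and 73.3, 38.4, 49.8, 31.8 and 19.6 in dSCI (0.70, SE 0.23, adjusted p = 0.0184), where it was called higher without graft dSCI 14 d replicate 5 (0.80, 0.00939), with DESeq2 (0.80, 0.0035) and with its size factors (0.80, 0.00939). The direction of Snai1 in dSCI depended on the reference. Its mean of 42.6 CPM lay above NPC DCH (30.7) but below NPC media (60.9) and NPC P15 D3 (57.7). Twist1 fell by 1.00 (SE 0.23) in uninjured cord and by 1.04 (SE 0.23) in SCI on the log2 scale, to 10.8 to 17.8 and 6.15 to 15.7 CPM from 20.4 to 34.3, and overlapped its start in dSCI (13.4 to 36.4 CPM). Against NPC media the fall in uninjured cord was not called (−0.70, SE 0.22, adjusted p = 0.0136).

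Zeb2 and Foxd1 were higher and Zeb1 lower in all 3 settings. Zeb2 read 36.0 to 48.0 CPM before grafting, 136 to 207 in uninjured cord, 119 to 191 in SCI and 127 to 172 in dSCI (log2FC 2.15 to 2.21, SE 0.13 to 0.19). Zeb1 went from 230 to 278 CPM to 74.1 to 159, 48.4 to 102 and 42.2 to 86.1 CPM (−0.94, −1.23 and −1.45). Foxd1 had 0 or 1 count in the NPC DCH libraries, which allows no fold change, and 18.9, 18.6, 0.995, 21.0 and 29.9 CPM in uninjured cord, 2.65, 4.45, 4.1, 9.76 and 5.13 in SCI and 132, 28.6, 19.7, 62.5 and 15.2 in dSCI. Foxc2 was higher in SCI (1.94, SE 0.33) and dSCI (3.45, SE 0.33), at 13.9 to 32.5 and 36.1 to 126 CPM against 4.88 to 10.8. In uninjured cord Foxc2 read 3.68 to 46.7 CPM (1.91, SE 0.60) and missed the threshold (adjusted p = 0.0143), but was called without graft replicate 1 (0.00784) or 3 (0.000889), with DESeq2 (0.00105), in 1 fit over all graft groups (0.00545) and against NPC P15 D3 (0.00433). Foxc1 was higher in dSCI (1.54, SE 0.23, 47.0 to 135 against 25.9 to 35.7 CPM). Snai2 was higher in dSCI (3.78, SE 0.96), at 21.6, 14.0, 9.79, 7.32 and 4.08 CPM against 0 to 1.57, but not without NPC DCH replicate 2 (adjusted p = 0.0112) or graft dSCI 14 d replicate 1 (0.013). In SCI it read 4.62 to 6.97 CPM, above every NPC DCH library, and missed the threshold (3.00, SE 0.91, adjusted p = 0.0115). It was called there without NPC DCH replicate 5 (0.00119), with DESeq2 (0.000337), in 1 fit (0.00378), and against NPC media (0.00747) or NPC P15 D3 (8.87e-05). Prrx1 was lower in uninjured cord (−1.84, SE 0.32) and SCI (−1.07, SE 0.17), and against NPC P15 D3 instead neither was called (−0.46 and 0.32, adjusted p = 0.256 and 0.155), while dSCI was called higher (1.22, SE 0.22, 0.000461).

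Between SCI and uninjured cord at 14 days, none of 10 members was called by edgeR or by DESeq2 (4.64% of all genes were called by edgeR), and 3 had an unadjusted p below 0.05, namely Snai2, Foxd1 and Prrx1. Snai2 read 0.0351, 0.614, 1.93, 2.64 and 2.33 CPM in uninjured cord, all under the 4.62 to 6.97 CPM of SCI, with a log2FC of 2.29 (SE 0.82, adjusted p = 0.0795). Libraries of the other 9 members overlapped, Foxd1 with a log2FC of −1.50 (SE 0.63, adjusted p = 0.138) and Prrx1 of 0.74 (SE 0.34, adjusted p = 0.17). Against uninjured cord, dSCI had more Snai1 (log2FC 2.23, SE 0.38, edgeR adjusted p = 0.00342), the 1 member called (4.19% of all genes), and the call was lost without graft dSCI 14 d replicate 3 (0.0105). Prrx1 (1.65, SE 0.36) just missed the threshold there (adjusted p = 0.0113) and passed it without a filter (0.00728), with DESeq2 (0.000166), with its size factors (0.00922) or in 1 fit (0.000861). Foxc1 (1.33, SE 0.34, adjusted p = 0.0236) was called with DESeq2 (0.00203) and in 1 fit (0.00454), and Snai2 (3.08, SE 0.84, adjusted p = 0.0322) with DESeq2 (0.000817). Against SCI, dSCI had more Snai1 (1.58, SE 0.27, 0.00594) and Foxd1 (3.18, SE 0.56, 0.00662), the 2 members called (1.83% of all genes, 1.29% higher), with no overlap of libraries in either. Leaving out any library other than replicate 5 of either group ended the call of Snai1 (adjusted p up to 0.0225), and any other than these and dSCI replicate 3 that of Foxd1 (adjusted p up to 0.0268), whose log2FC was 2.52 (SE 0.46) without graft dSCI 14 d replicate 1. Without both libraries in which 1 gene took over 20% of counts, a choice made after seeing the data, Foxd1 (3.41), Snai1 (1.80), Foxc1 (1.49) and Foxc2 (1.76) were called. The share of all genes called in that fit is not given. Leaving out graft SCI 14 d replicate 5 alone was enough to call Foxc1 (0.00575) and Foxc2 (0.00544), and leaving out graft dSCI 14 d replicate 5 to call Foxc2 (0.00988). DESeq2 called Foxc1 (0.00151), Foxc2 (0.000374) and Prrx1 (0.00989), Foxc1 was called in 1 fit (0.00984), and Foxc2 without a filter (0.00671).

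Among grafts at 14 days, those in dSCI also had the highest fibroblast and meninges markers. Fibroblast and meninges markers summed to 8617 to 35470 CPM in dSCI, led by Col1a1, against 2235 to 5348 in SCI and 2542 to 6558 in uninjured cord, and 6 of 9 were called higher in dSCI than in SCI (Col1a2 3.39, Lum 2.82, Col1a1 2.66), with none of the 9 at or under 3 counts throughout. The same list summed to 1215 to 1661 CPM in cultures at 20% FBS, and the source of these markers in grafts was not tested. Replicate 1 of dSCI had the highest sum and also the highest Snai1, Snai2, Twist1, Twist2, Zeb2, Foxc1, Foxc2 and Foxd1 of its group. Endothelial markers, 4 of 8 higher, reached 723 CPM against at most 83.6 in SCI, and myeloid markers 778 to 5392 against 387 to 1251 CPM with none of 10 called. Their part in the result was not tested. Of 27 mesenchymal effectors, 9 were higher in dSCI than in SCI and none lower.

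From 5 to 14 days in SCI, Twist1, Snai1 and Snai2 were lower at the later time, 3 of 10 members (5.3% of all genes were called, 2.58% lower). Twist1 went from 32.3 to 96.7 CPM to 6.15 to 15.7 CPM (log2FC −2.13, SE 0.34, edgeR adjusted p = 0.00182), Snai1 from 26.9 to 61.5 to 10.9 to 15.9 (−1.47, SE 0.26, 0.00336) and Snai2 from 9.73 to 37.9 to 4.62 to 6.97 (−1.60, SE 0.32, 0.00713), without overlap. Leaving out replicate 1 or 2 at 14 days or replicate 2 or 3 at 5 days ended the call of Snai1 (adjusted p up to 0.0144), and any library other than replicates 4 and 5 at 5 days that of Snai2 (adjusted p up to 0.0236), which was also lost in 1 fit over all graft groups (−1.60, SE 0.78, adjusted p = 0.194). Prrx1 (−1.22, SE 0.27, adjusted p = 0.0102) was called lower without 14 day replicate 4 (0.00889) or 5 day replicate 4 (0.0011), without a filter (0.0087), with DESeq2 (0.00037) and in 1 fit (0.0073). Zeb2 (0.94, SE 0.30, adjusted p = 0.0602) was called higher without 5 day replicate 4 (0.00365) and in 1 fit (0.00681). Without the 5 day library with the most myeloid counts and the 14 day library dominated by 1 gene, a choice made after seeing the data, 5 members were called. Prrx1 (−1.32, adjusted p = 0.00214) and Zeb2 (1.07, 0.00333) were among them. The share of all genes called in that fit is not given. Time and read type, as taken from the count headers, changed together here and cannot be told apart. Mesenchymal effectors moved alike, 12 of 27 lower and none higher, with Postn at −3.71 (SE 0.53), Fbln2, a matrix fibulin, at −3.51 (SE 0.49) and Acta2 at −3.10 (SE 0.48), while Aqp4 (aquaporin of astrocyte endfeet) was higher (1.91, SE 0.22), and 3 of 9 fibroblast and meninges markers were lower.

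**Figure D3:**
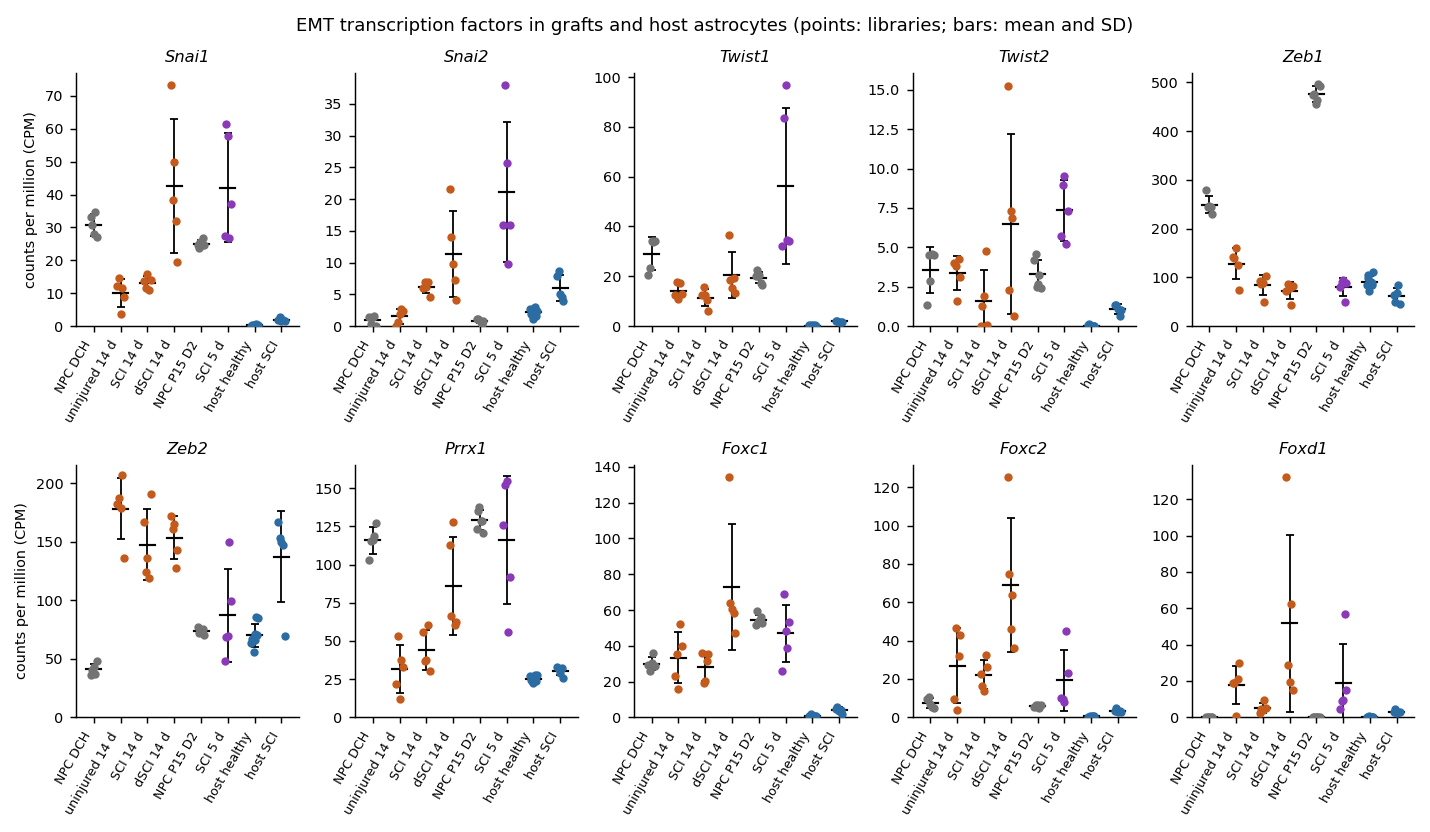
Each panel plots the CPM of 1 gene (y axis, from 0, its scale differing between panels) before grafting (grey), in grafts at 14 days (orange) and 5 days (purple) and in host astrocytes (blue). Points are libraries (5 each, 6 for NPC P15 D2 and 9 for healthy hosts), bars the mean and SD. Zeb2 was higher and Zeb1 lower in all 14 day grafts than in NPC DCH, and dSCI grafts spread widely, with replicate 1 the highest for 8 of the genes.

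Grafts in SCI and host astrocytes of SCI, both at 14 days, differed in 4 of 10 members, all higher in grafts. Of all genes, 14.6% were called, 6.79% higher. The pull-down from grafts took all tagged graft cells, and host libraries were not astrocyte RNA alone either. Snai1 read 10.9 to 15.9 CPM in grafts and 1.51 to 2.88 in hosts (log2FC 2.74, SE 0.27, edgeR adjusted p = 2.21e-05), Twist1 6.15 to 15.7 and 1.7 to 2.11 (2.54, SE 0.26), Foxc1 19.1 to 35.7 and 2.09 to 5.99 (2.76, SE 0.30), and Foxc2 13.9 to 32.5 and 2.57 to 5.05 (2.71, SE 0.30). Snai2 overlapped at 4.62 to 6.97 and 4.01 to 8.69 CPM (−0.03, SE 0.27, adjusted p = 0.957), as did Zeb1, Zeb2, Prrx1, Foxd1 and Twist2. Fibroblast and meninges markers were also higher in grafts (4 of 9, Dcn 2.43) and all 6 Schwann cell markers lower, and their part in the result was not tested.

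**Figure D4:**
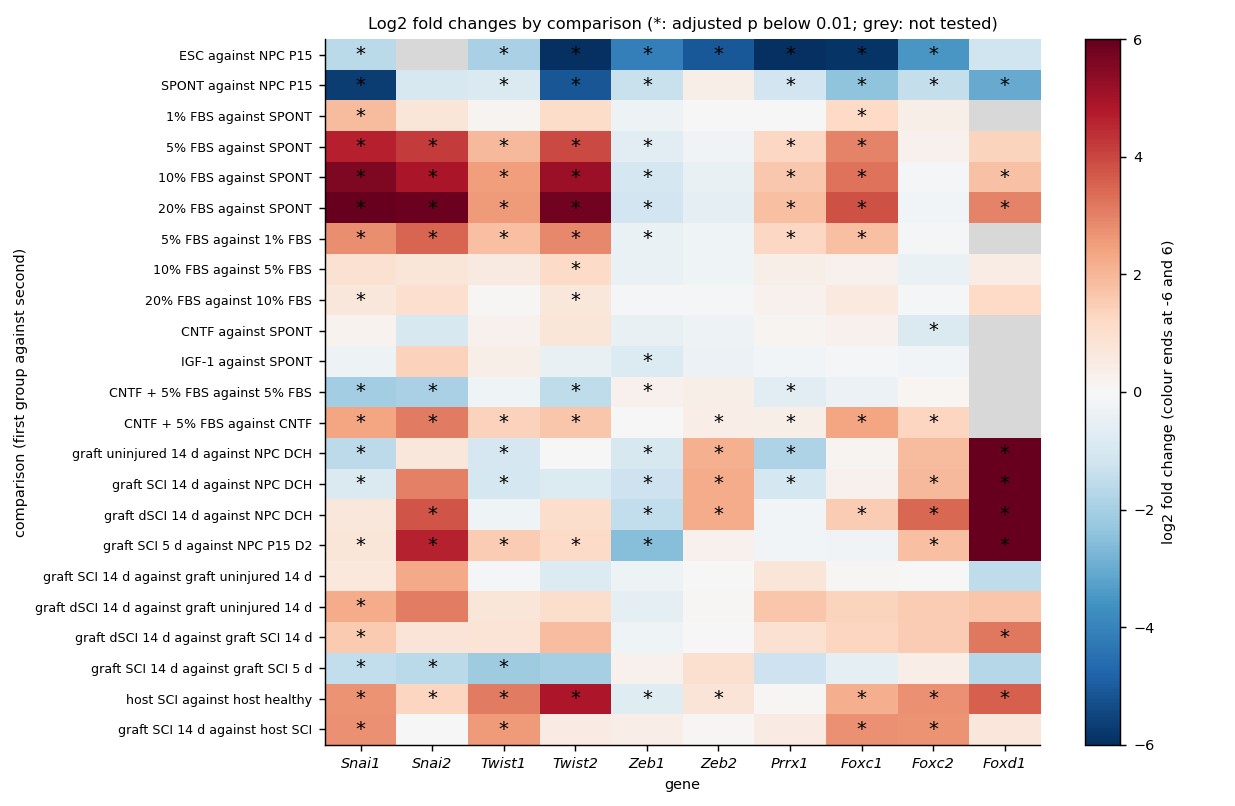
Rows are the comparisons between groups, columns the 10 genes, and color gives the log2FC of the first group against the second, with color ending at −6 and 6. An asterisk marks an adjusted p below 0.01 and grey a gene not tested. The rows of 5, 10 and 20% FBS against SPONT show Snai1, Snai2, Twist1, Twist2, Prrx1 and Foxc1 higher with Zeb1 lower, the CNTF with 5% FBS row against 5% FBS shows Snai1, Snai2, Twist2 and Prrx1 lower, and the host row shows 8 of the genes higher.

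Across all 23 conditions the genes differed in where they peaked. Snai1, Twist1, Twist2 and Prrx1 had their highest mean at 20% FBS (70.5, 68.4, 8.97 and 141 CPM). Of these Twist2 at 20% FBS lay above the condition next by mean, NPC P15 D3, in every library, but overlapped grafts at 5 days. The others overlapped the condition next to them by mean. Foxc1, Foxc2 and Foxd1 peaked in dSCI grafts (72.8, 69.3 and 51.7 CPM), Snai2 in grafts at 5 days (21.1 CPM), Zeb2 in grafts in uninjured cord (178 CPM) and Zeb1 in NPC P15 (484 CPM), each overlapping its neighbor in the order. Lowest were healthy hosts for Snai1, Twist1, Twist2 and Foxc2 (0.263, 0.186, 0.0327 and 0.439 CPM), and ESC for Zeb1, Zeb2, Prrx1 and Foxc1.

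Over the 23 condition means of log2(CPM + 1), the closest pair of members was Snai1 and Twist2 (Pearson r = 0.891), followed by Twist2 and Foxc1 (0.816), Twist1 and Foxc1 (0.807) and Prrx1 and Foxc1 (0.801), and the most opposed was Zeb1 and Snai2 (−0.434). Among the 14156 genes that reached 5 CPM on average in 1 or more conditions, those nearest to Snai1 were Man2a1 (0.933), Ephb4 (0.899) and Itga1 (0.891), to Snai2 Fst (0.901), Gask1b (0.891) and Igf1 (0.890), to Twist1 Pofut2 (0.915), to Twist2 Mrc2 (0.926), and to Foxc1 Pcsk5 (0.958), Elk3 (0.929) and Fbn1 (0.928), the last being fibrillin of the matrix. Zeb1 was nearest to Rbm41 (0.952), Zeb2 to Mblac2 (0.961), Prrx1 to Fam102b (0.947) and Hoxb2 (0.947), and Foxc2 to Akap13 (0.859). Foxd1 was nearest to Crispld1 (0.985), Cd33 (0.977) and C1qtnf2 (0.977). These values describe 23 conditions that share a cell line, libraries of unequal depth and, in tissue, markers of other cell types.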

How the data were processed

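Raw counts per gene were deposited by the authors in 1 table per library. Per their methods, lanes were joined, reads trimmed (Trimmomatic), aligned to mm10 (HISAT2) and counted with featureCounts at default settings on the Galaxy platform. Whole numbers that are even were in excess in libraries with 2 read data sets, at 53.1 to 73.8% of counts from 1 to 20. In libraries with 1 read data set they were at 43.1 to 48.5%. From this it was taken that the former are paired, with each mate of a pair counted. All 27179 Entrez gene ids were kept, of which 25275 were named by RefSeq, and the 10 members were matched by symbol. CPM used the library total as denominator. FPKM divided CPM by the exon length in GENCODE M21, which 21572 genes had.

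Each of 24 comparisons was fitted with edgeR 4.0.16 (R 4.3.3) on the libraries of its groups only, with filterByExpr, TMM scaling and the quasi-likelihood F test, adjusted by Benjamini-Hochberg over all genes tested and called below 0.01. The SE is the absolute log2 fold change divided by the square root of F. The scripts were tested on simulated data. A gene filtered out is given as not tested. The members and the lists were chosen with earlier results of these data known. Named list genes are the 3 with the largest absolute change among called genes of a list, besides Cdh1, Cdh2, Vim, Fn1, Acta2 and Tgfb1. Genes nearest to a member are those with the highest Pearson r. Replicate numbers of 5% FBS and SPONT paired the libraries by their deviations (r of 0.114 to 0.318 in 4 pairs), and with that block the same number of members, 7, was called. In no other comparison of groups did every pair exceed 0.1, and there they were taken as only numbers. Between 10 and 5% FBS r was 0.0396 to 0.506 (mean 0.351). With the block, edgeR called Snai1 (adjusted p = 0.000584), Snai2 (0.00465) and Zeb1 (0.00964) in that step. Alternatives were DESeq2 1.42.0, its size factors in edgeR, no filter, a threshold of 0.05, 1 fit over related groups, other reference progenitors, the replicate block and leaving out each library. 3 more, marked in the text, were chosen after seeing the data. Sequences and positions are from RefSeq GRCm38.p6, which mm10 denotes. Some genes of the lists are not reported here by name.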

Additional observations from a re-analysis of the deposited data

Results flagged for a closer look

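Among 229 groups of values of single members, 18 had a library set apart from the rest of its group by a gap larger than Dixon's critical value, where chance alone flags about 1 in 20. In tissue these were Snai1 at 0.73 CPM in host healthy replicate 7 (others 0.0823 to 0.36) and at 2.88 CPM in host SCI replicate 2 (1.51 to 1.89), Foxc1 at 1.91 CPM in host healthy replicate 3 (0.154 to 0.913), Foxd1 at 0.746 CPM in host healthy replicate 4 (0 to 0.347), Foxc2 at 5.05 CPM in host SCI replicate 2 (2.57 to 3.14) and Zeb2 at 69.3 CPM in host SCI replicate 5 (147 to 167). In grafts they were Twist1 at 36.4 CPM (13.4 to 19.5) and Foxc1 at 135 CPM (47.0 to 63.7) in graft dSCI 14 d replicate 1, Zeb1 at 48.4 CPM in graft SCI 14 d replicate 4 (87.2 to 103) and Foxd1 at 56.6 CPM in graft SCI 5 d replicate 4 (4.72 to 15.3). Host SCI replicate 2 had the highest myeloid sum of its group, 1171 CPM, and graft SCI 5 d replicate 4 that of its own, 7772 CPM.

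In cultures they were Snai1 at 5.35 CPM in 1% FBS replicate 1 (others 2.4 to 2.89), Snai2 at 0.506 CPM in ESC replicate 1 (0.0223 to 0.0313) and at 2.19 CPM in NPC media replicate 2 (0 to 0.531), Twist2 at 0.36 CPM in ESC replicate 2 (0 to 0.028), Zeb2 at 68.0 CPM in NPC P15 replicate 3 (51.2 to 53.5) and at 39.5 CPM in IGF-1 replicate 3 (53.0 to 53.5), Prrx1 at 109 CPM in NPC DCH 4 h replicate 5 (122 to 128) and Foxd1 at 0.573 CPM in NPC P30 replicate 4 (0 to 0.0287).

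The effect of 5% FBS differed with and without CNTF for 5 members by the edgeR test of the difference itself, on the log2 scale by −2.30 for Snai1 (adjusted p = 1.65e-05), −2.26 for Twist2 (0.00206), −0.85 for Prrx1 (9.26e-05), 1.01 for Foxc2 (0.000827) and 0.71 for Zeb1 (0.00173).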

How the results depend on the processing

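For the 116 log2 fold changes of called members, 1626 of 1722 alternative values kept direction and call, 92 kept direction and lost the call, and 4 turned in sign. These were Prrx1 (0.017) and Foxc2 (0.064) in SPONT against NPC P15 D3, Foxd1 (0.028) in SPONT against NPC P5 and Prrx1 (0.32) in grafts in SCI at 14 days against NPC P15 D3, where the reference cells themselves differ. TMM scaling moved 36 of 230 group means by more than 1 SD, by a ratio of 0.886 to 1.26 for means over 1 CPM. DESeq2's size factors moved the log2 fold changes of the members by over 0.1 (median) in 1 comparison, uninjured grafts against NPC DCH (0.11). The number of members called depended on the setting in comparisons with few calls, and the cause was not tested. Shares of all genes called under these settings are not given, so the counts cannot be set against them. Against NPC P5, 5 members were called in SPONT. From 5 to 10% FBS, 1 became 4 with DESeq2, 2 without a filter, 4 with the replicate block, 5 in 1 fit over all differentiation groups, 4 at a threshold of 0.05, and 0 on leaving out any library. From 10 to 20% FBS, 2 became 5 with DESeq2, 0 with the block, 5 at 0.05, and 0 to 4 on leaving out a library. For CNTF against SPONT, 1 became 2 with DESeq2, in 1 fit or at 0.05, and 1 to 2 on leaving out a library. For IGF-1, 1 became 2 with DESeq2, 0 with the block, 3 at 0.05, and 0 to 1 on leaving out a library. For dSCI against uninjured cord, 1 became 2 with size factors or without a filter, 4 with DESeq2 or at 0.05, 3 in 1 fit, 0 with the block, and 0 to 1 on leaving out a library. For dSCI against SCI, 2 became 5 with DESeq2 or at 0.05, 0 with the block, 4 without the libraries dominated by 1 gene, and 0 to 4 on leaving out a library. For SCI at 14 against 5 days, 3 became 1 with the block, 5 without the 2 libraries that stood apart, and 1 to 5 on leaving out a library. In libraries taken as single-read, depth limits levels under about 0.2 CPM.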
